A study of Rattus norvegicus with 14 samples.

Results

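Expression of the tubulin isotypes was compared between peritoneal mesotheliomas and control peritoneal tissue of rats. The gene list held 10 tubulins, namely Tuba1a, Tuba1b, Tuba4a, Tuba8, Tubb2a, Tubb3, Tubb5, Tubb6, Tubg1 and Tube1, and a gene entered the comparisons if the array had a probe set assigned to that gene alone. This held for 8 of the 10 genes, with 13 probe sets, out of 31042 probe sets on the array and 14217 genes with a probe set of their own. Tuba1a and Tuba1b shared 1 probe set with Tuba1c and are described through it alone. Of the 8 genes, Tubb3, Tubb5, Tubb6 and Tube1 had several probe sets, and such a gene was represented by the probe set that read highest on average across the 14 arrays.

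The tumors came from male Wistar rats that had received a single injection into the peritoneal cavity of multiwalled carbon nanotubes (MWCNT) or amosite asbestos, both suspended in artificial lung medium. Of 11 tumors, each from a different rat, 2 followed MWCNT B, 3 MWCNT C, 3 MWCNT D and 3 amosite. By histology 5 were sarcomatoid (MWCNT B replicate 2, MWCNT C replicates 1 and 2, MWCNT D replicate 2, amosite replicate 3), 3 biphasic (MWCNT C replicate 3, MWCNT D replicate 3, amosite replicate 2) and 3 epithelioid (MWCNT B replicate 1, MWCNT D replicate 1, amosite replicate 1). Peritoneal tissue from 3 male Wistar rats, which the sample labels call sham-treated and the methods call untreated, served as control. Ages of the rats and the particle doses were not in the labels. MWCNT B and MWCNT C were made from cyclohexane and MWCNT D from acetonitrile.

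Microtubules are hollow polymers of alpha- and beta-tubulin heterodimers, and several genes encode isotypes of each subunit that differ mostly in their C-terminal tails and in the tissues that use them. Gamma-tubulin nucleates microtubules at the centrosome, and epsilon-tubulin is needed for the triplet microtubules of centrioles. In dividing cells the same polymers form the mitotic spindle, which is the target of taxanes and vinca alkaloids, whereas in skeletal muscle fibers they form a lattice along the contractile apparatus.

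The start-site regions of Tuba4a, Tuba8, Tubb2a and Tubb5, on which the results turn, are printed here. The sequences are from RefSeq, build GRCr8, and run from 250 bases before to 50 bases after an annotated start of each gene. Capitals mark TATAA or CCAAT on either strand. The window of Tuba4a lies at chr9:84162535-84162834 on the minus strand, that of Tuba8 at chr4:156112022-156112321 on the plus strand, that of Tubb2a at chr17:31001936-31002235 on the plus strand and that of Tubb5 at chr20:2917327-2917626 on the plus strand. The windows of Tuba4a and Tuba8 lie inside the annotated spans of these genes (chr9:84158871-84174041 and chr4:156110562-156129065) and not at their outer ends. Whether the transcripts read by the array start there was not examined.
Tuba4a: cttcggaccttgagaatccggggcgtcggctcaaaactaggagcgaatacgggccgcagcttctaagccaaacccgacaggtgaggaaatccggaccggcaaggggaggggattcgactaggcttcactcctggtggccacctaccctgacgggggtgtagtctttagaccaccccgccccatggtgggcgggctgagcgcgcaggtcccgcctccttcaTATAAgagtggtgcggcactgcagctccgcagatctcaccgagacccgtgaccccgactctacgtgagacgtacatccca
Tuba8: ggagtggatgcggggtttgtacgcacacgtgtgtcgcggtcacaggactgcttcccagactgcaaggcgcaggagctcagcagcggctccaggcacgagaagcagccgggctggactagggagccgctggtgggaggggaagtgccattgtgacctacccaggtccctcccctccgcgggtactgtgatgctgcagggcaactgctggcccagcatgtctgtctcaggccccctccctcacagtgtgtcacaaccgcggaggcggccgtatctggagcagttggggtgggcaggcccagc
Tubb2a: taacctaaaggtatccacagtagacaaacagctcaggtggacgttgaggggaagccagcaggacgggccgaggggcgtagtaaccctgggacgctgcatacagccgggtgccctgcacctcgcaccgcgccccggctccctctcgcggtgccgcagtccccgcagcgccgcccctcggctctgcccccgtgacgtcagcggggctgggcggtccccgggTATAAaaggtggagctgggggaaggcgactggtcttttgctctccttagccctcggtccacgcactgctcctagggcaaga
Tubb5: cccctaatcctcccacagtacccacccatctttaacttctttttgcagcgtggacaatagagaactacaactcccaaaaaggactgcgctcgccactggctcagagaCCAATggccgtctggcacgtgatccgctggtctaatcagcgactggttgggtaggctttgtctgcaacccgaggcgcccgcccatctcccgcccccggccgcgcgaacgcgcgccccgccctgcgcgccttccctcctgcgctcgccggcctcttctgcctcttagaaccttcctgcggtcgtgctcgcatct

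Of the 10 genes, 9 had a start-site region in the RefSeq table, and Tube1 did not. With both strands searched, TATAA was found in 4 of the 9 regions (Tuba1a, Tuba4a, Tubb2a and Tubb3), against 26.2% of 33469 regions of the same length. CCAAT was found in 6 (37.5% of all regions) and GGGCGG, a GC box, in 7 (33.1%). CAGCTG, an E-box of the kind bound by myogenic factors, was found in 2 (15.1% of all regions), and TTTGAA, the core of the cell cycle homology region, in 0 (18.3%). The printed region of Tuba8, which lies inside the annotated gene span, held none of these 5 letter strings. The GC content of the 9 regions had a median of 66.0%, against 51.7% over all regions. These matches are a description of the letters in the windows.

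Signals are given as log2(signal + 1), on which scale a difference of 1 is a 2-fold change, and no level of one probe set is set against that of another. A call required a change above 2-fold and p below 0.05 in limma after Benjamini-Hochberg adjustment over all 31042 probe sets. The arrays of controls and tumors differed beyond single genes. Array medians were 96.9 to 104.3 in controls and 128.8 to 154.4 in tumors in linear signal, the median log2 change over all probe sets was 0.34 (-0.10 after centring each array on its median), and the 3′ minus 5′ log2 signal of beta-actin was -1.24 to -0.65 in controls and 0.30 to 0.60 in tumors. The 19 measured genes of a skeletal muscle list averaged 5.11 to 5.71 in the tumors but 14.34 to 14.37 in the 3 controls, and the 11 measured mesothelial genes averaged 7.16 to 11.50 and 4.10 to 5.83, respectively, so that the tissue labelled as peritoneal carried muscle signal and little mesothelial signal. MWCNT D replicate 2 and amosite replicate 1 stood apart with pancreatic acinar list means of 13.93 and 14.75, against 5.57 to 5.99 in the other tumors. In bulk tissue, fewer cells of a type and less RNA per cell cannot be told apart.

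Between the 11 tumors and the 3 controls, 3 of the 8 genes were called higher (Tubb5, Tubb6 and Tubb2a) and 2 lower (Tuba8 and Tuba4a). Over all probe sets 24.5% were called higher and 10.4% lower. The share of all probe sets without overlap between tumors and controls was not computed, so that the lack of overlap told below has no background beside it. The median log2 change of the 8 genes was 0.42, near the 0.34 of all probe sets, with members far on both sides of it. Tuba4a, Tuba8, Tubb2a and Tube1 are among the genes that the study selected on these same samples as related to mesothelioma, so that their direction is no independent evidence.

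**Figure D1:**
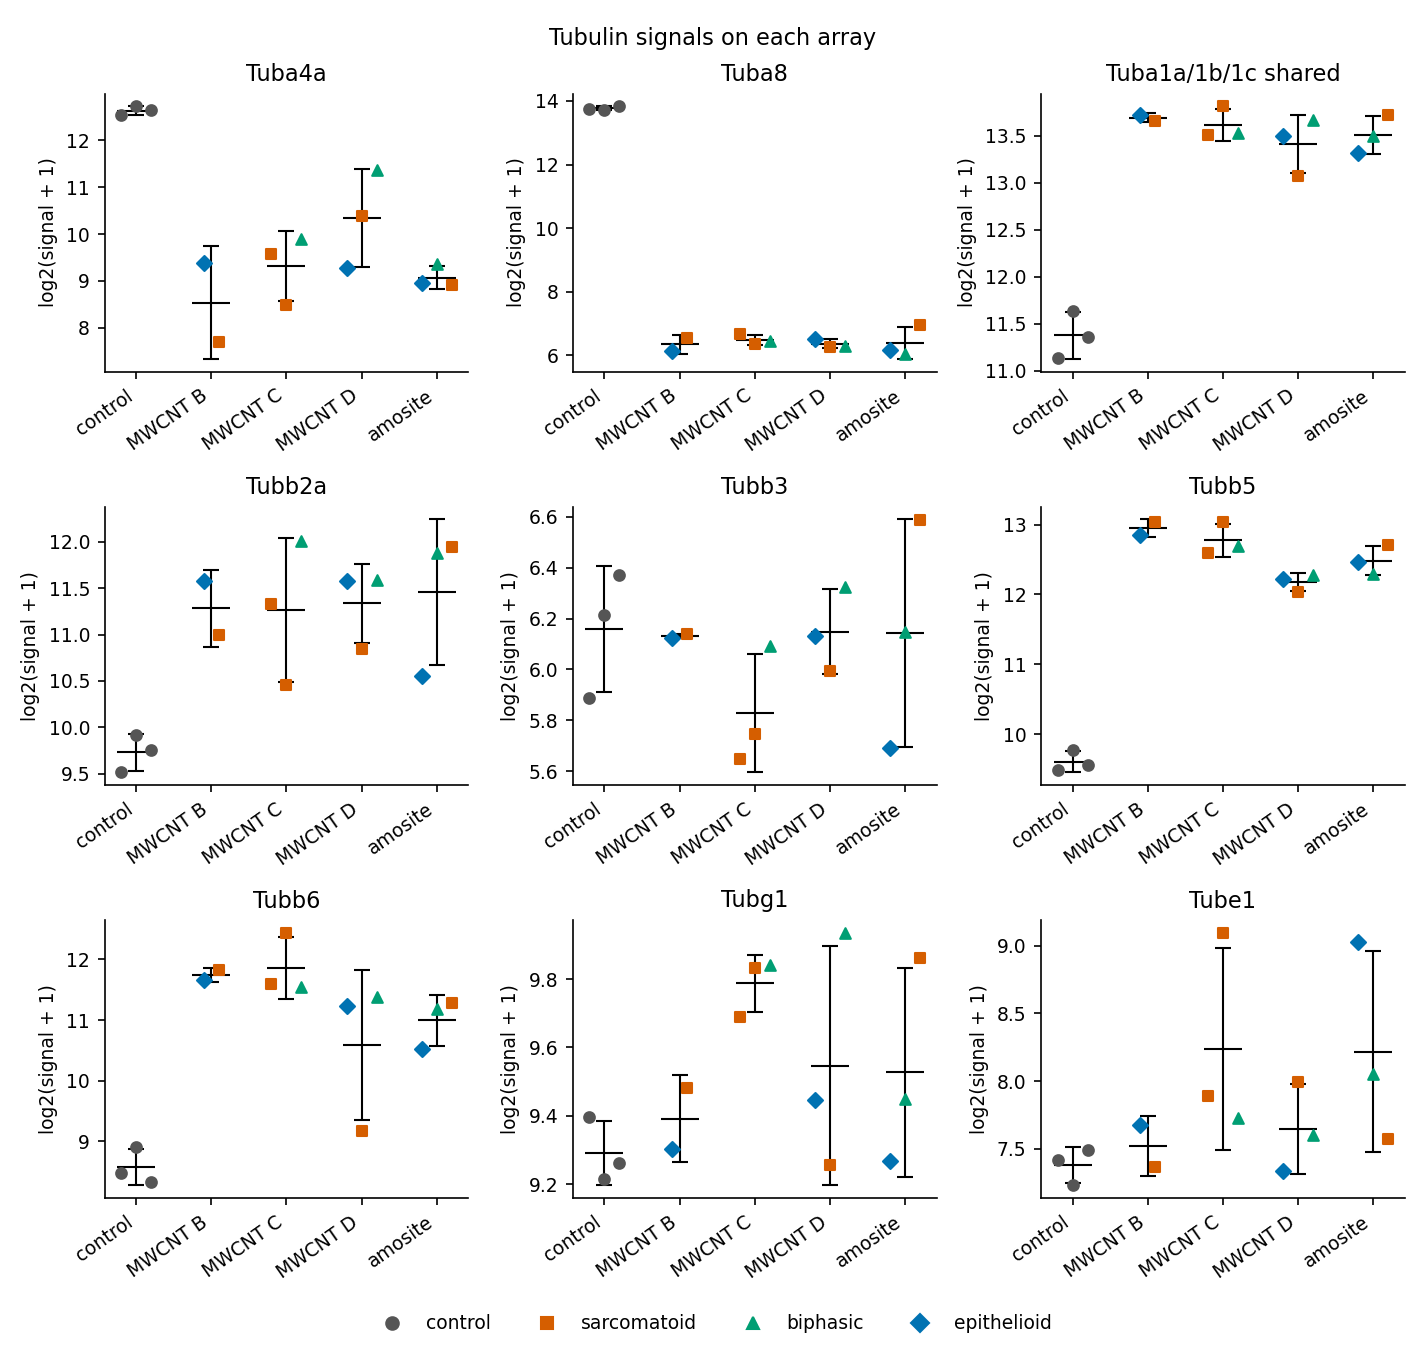
Signal of each tubulin gene and of the probe set shared by Tuba1a, Tuba1b and Tuba1c on the 14 arrays, as log2(signal + 1), by inducer on the x axis and with tumor type by symbol; each panel has its own scale, and the bars give the group mean ± SD. Controls lie above every tumor for Tuba4a and Tuba8 and below every tumor for Tubb2a, Tubb5, Tubb6 and the shared probe set.

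Among the alpha-tubulins, Tuba8 fell furthest of the 8 genes. Tuba8 is an isotype known from heart, skeletal muscle and testis. Its signal was 13.74, 13.72 and 13.84 in the 3 controls, and the tumors ranged from 6.04 to 6.95 with a median of 6.36. All tumors lay far below all controls, and the tumors lay close to each other (SD 0.27, n = 11). The log2 difference was -7.37 (SE 0.17, 95% interval -7.73 to -7.01, limma adjusted p = 7.6e-14), a 165.5-fold lower signal on the log2(signal + 1) scale. Every tumor reading of Tuba8 lay below the median signal of any tumor array, and without detection calls it is not known whether these readings are above background, so that the size of the fold is uncertain. The exact two-sided permutation test gave p = 0.00275, the smallest that 11 against 3 arrays allow.

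Tuba4a encodes a broadly used alpha-tubulin that, unlike most others, lacks the encoded C-terminal tyrosine. It was read at 12.54, 12.73 and 12.64 in the controls and at 7.69 to 11.36, with a median of 9.36, in the tumors. The groups did not overlap, and among the 8 genes the tumors were spread most widely here (SD 0.97). The log2 difference was -3.25 (SE 0.54, 95% interval -4.40 to -2.10, limma adjusted p = 1.6e-04), a 9.49-fold lower signal, with exact permutation p = 0.00275.

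Skeletal muscle genes fell along with both. All 19 measured genes of that list were called lower, with a median log2 change of -8.80, including Pgam2, the muscle phosphoglycerate mutase, at -14.39, Pvalb, the calcium buffer parvalbumin, at -13.14, and Myh4, a fast myosin heavy chain, at -12.79. The part of muscle tissue in the changes of Tuba8 and Tuba4a was not tested.

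The probe set shared by Tuba1b, Tuba1c and Tuba1a, alpha-tubulins of many proliferating cells and of the developing brain, moved the other way. Its signal was 11.14, 11.64 and 11.36 in controls and 13.07 to 13.82, with a median of 13.53, in tumors. Every tumor exceeded every control, with a log2 difference of 2.17 (SE 0.16, limma adjusted p = 6.9e-08) or a 4.50-fold higher signal. Which of the 3 genes contributed cannot be told apart.

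Among the beta-tubulins, Tubb5, Tubb6 and Tubb2a were called higher. Tubb5 encodes the class I beta-tubulin that nearly all cells use. Its signal was 9.49, 9.78 and 9.55 in controls and 12.03 to 13.04, with a median of 12.59, in tumors. The gap between the groups was wider than the range within either. Tubb5 rose by 2.96 on the log2 scale (SE 0.21, 95% interval 2.51 to 3.40, limma adjusted p = 5.2e-08), a 7.78-fold higher signal, and the other probe set of Tubb5, 1370290_at, gave 3.34 (limma adjusted p = 6.5e-09).

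Tubb6 encodes the class V beta-tubulin. It was read at 8.48, 8.91 and 8.33 in controls and at 9.17 to 12.44, with a median of 11.38, in tumors. The lowest tumor, MWCNT D replicate 2, was 1 of the 2 with pancreatic signal and still lay above the controls. The log2 difference was 2.68 (SE 0.47, 95% interval 1.67 to 3.70, limma adjusted p = 2.7e-04), a 6.43-fold higher signal, and the other probe set, 1394144_at, gave 1.61 (limma adjusted p = 8.1e-06). Without both tumors with pancreatic signal the log2 difference of Tubb6 was 3.00 (limma adjusted p = 6.2e-07).

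Tubb2a encodes a beta-tubulin that is abundant in neurons but made in many tissues. Its signal was 9.52, 9.91 and 9.76 in controls and 10.46 to 12.01, with a median of 11.57, in tumors. Every tumor exceeded every control, by the smallest log2 difference of the 3 called beta-tubulins, which was 1.61 (SE 0.32, 95% interval 0.93 to 2.29, limma adjusted p = 6.8e-04) or a 3.05-fold higher signal.

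Tubb3, the class III beta-tubulin used as a marker of neurons, did not pass the test by either probe set. Probe set 1369901_at was read at 5.89, 6.22 and 6.37 in controls and at 5.65 to 6.59, with a median of 6.13, in tumors. The groups overlapped, and the log2 difference was -0.10 (95% interval -0.50 to 0.29, limma adjusted p = 0.66). Probe set 1371618_s_at was read at 5.40 to 5.62 in controls and spread from 0.005 to 7.79 in tumors, with a log2 difference of -0.03 and a 95% interval from -2.61 to 2.54 that leaves large changes in either direction possible. Over the 11 tumors the readings of these 2 probe sets had little in common (Pearson r = 0.02, permutation p = 0.95; Spearman rho = 0.11, permutation p = 0.75). Of 14 measured neuron and nerve genes, 2 were called higher (14.3%, against 24.5% of all probe sets) and 1 lower (7.14%, against 10.4%). With so few genes these shares are not read as different from the background. Snap25 and Syt1, of synaptic vesicle release and named after their values were seen, were the higher ones and Mbp, of myelin, the lower one. The list averaged 4.85 to 4.95 in controls and 5.26 to 7.48 in tumors. The 7.48 was that of amosite replicate 1, a tumor with pancreatic signal, and the next highest tumor, MWCNT B replicate 1, averaged 6.25. The median log2 change of the list was 1.21, above the 0.34 of all probe sets, although few of its genes were called.

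Tubg1, the gamma-tubulin of the nucleating ring complex, was read at 9.40, 9.22 and 9.26 in controls and at 9.26 to 9.94, with a median of 9.48, in tumors. The groups overlapped, and the log2 difference was 0.29 (95% interval -0.07 to 0.65, limma adjusted p = 0.16). It became -0.16 once array medians were subtracted, and no direction is given.

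Tube1, the epsilon-tubulin, gave different calls by probe set. Probe set 1383568_at, which had the highest mean, was read at 7.42, 7.23 and 7.49 in controls and at 7.34 to 9.10, with a median of 7.72, in tumors, and its log2 difference of 0.56 was not called (95% interval -0.17 to 1.29, limma adjusted p = 0.18). Probe set 1392370_at was read at 5.67, 5.85 and 5.77 in controls and at 6.95 to 8.21, with a median of 7.16, in tumors. There the groups did not overlap, and the log2 difference of 1.53 was called higher (SE 0.24, 95% interval 1.01 to 2.05, limma adjusted p = 1.1e-04). Probe set 1381855_at gave 0.24 (95% interval -0.51 to 0.99, limma adjusted p = 0.59). All 3 read highest or next to highest in MWCNT C replicate 2 and amosite replicate 1.

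**Figure D2:**
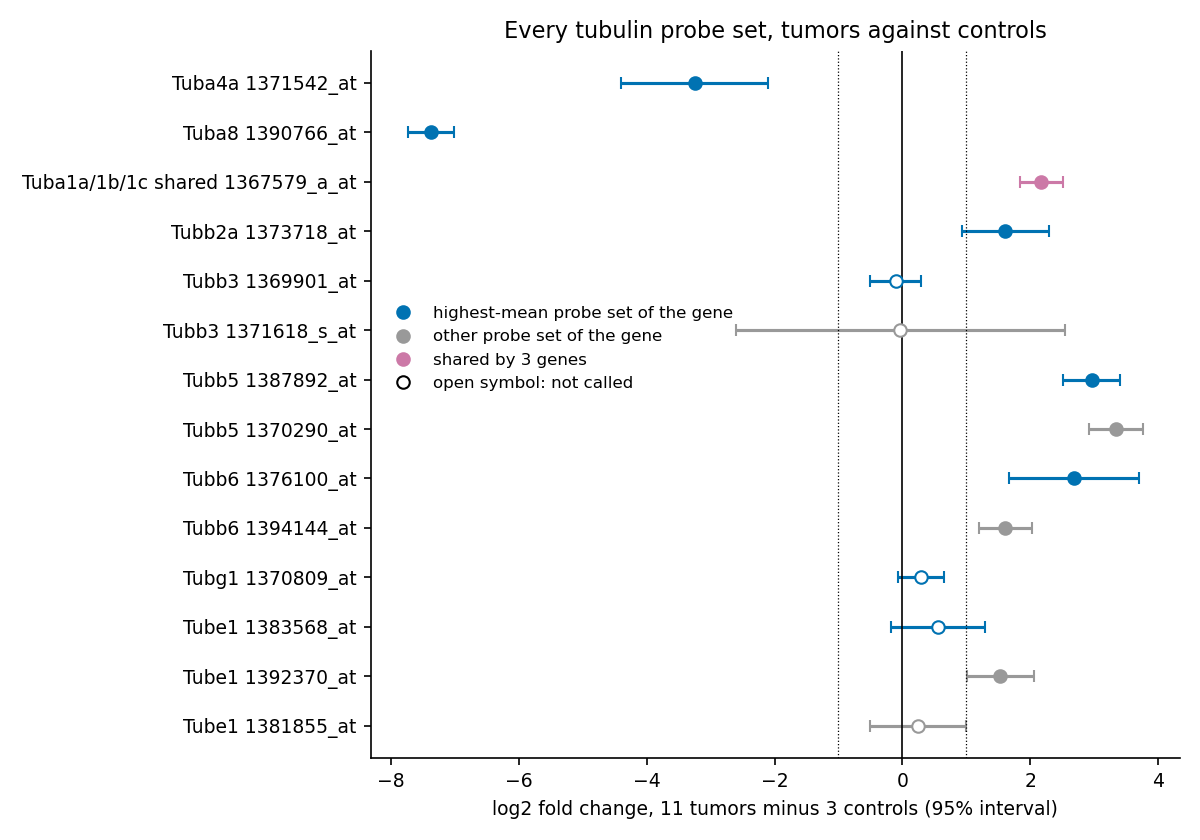
Log2 change of every tubulin probe set between 11 tumors and 3 controls (x axis), with 95% intervals of limma before adjustment; filled symbols were called, and dotted lines mark a 2-fold change. The probe sets of Tubb5 and of Tubb6 share a direction and a call, whereas 1 of 3 probe sets of Tube1 was called, at 1.53.

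Where a gene had several called probe sets, these also ranked the tumors alike. Over the 11 tumors, Pearson r was 0.96 between the probe sets of Tubb5 (permutation p = 1e-05, the smallest that the permutations can give, adjusted p = 6e-05 over 6 pairs; Spearman rho = 0.96). It was 0.86 for Tubb6 (permutation p = 0.00037, adjusted p = 0.00074; Spearman rho = 0.87). Without the 2 tumors farthest from the median of the first probe set, r was 0.98 for Tubb5 and 0.62 for Tubb6. For probe sets 1383568_at and 1392370_at of Tube1, r was 0.87 with all tumors (permutation p = 0.0053, adjusted p = 0.0063; Spearman rho = 0.57, permutation p = 0.071) and 0.19 without those 2, so that this relation rests on them.

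The same 5 genes were called in each of the 4 inducer groups against the controls, which all share the same 3 control arrays. With MWCNT B, 3 of 8 genes were higher and 2 lower, against 20.8% and 9.39% of all probe sets. The background was 21.9% higher and 10.2% lower with MWCNT C, 22.4% and 10.2% with MWCNT D, and 22.3% and 9.51% with amosite, again with 3 and 2 of the 8 genes in each. The log2 change of Tuba8 was -7.43 with MWCNT B, -7.28 with MWCNT C, -7.41 with MWCNT D and -7.39 with amosite. That of Tuba4a was -4.10, -3.32, -2.29 and -3.56 in the same order, and that of Tubb2a 1.55, 1.53, 1.60 and 1.73. Tubb5 differed by 3.34, 3.17, 2.57 and 2.88, and Tubb6 by 3.17, 3.29, 2.02 and 2.42. Limma adjusted p-values of these 5 genes were at most 0.029 with MWCNT B, 0.016 with MWCNT C, 0.013 with MWCNT D and 0.009 with amosite, each of them that of Tubb2a. Exact permutation tests of 3 against 3 or 2 against 3 arrays cannot go below 0.1 and are not used.

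Tubb2a was the least secure of these calls. Against MWCNT B, which had 2 tumors, its adjusted p by limma was 0.18 without MWCNT B replicate 1, 0.062 without MWCNT B replicate 2, 0.079 without control replicate 1 and 0.062 without control replicate 3. Against MWCNT C it was 0.064 without MWCNT C replicate 3 and 0.055 without control replicate 1. The log2 difference stayed between 1.16 and 1.84 in these 6 fits.

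By tumor type, each type again had 3 genes higher and 2 lower of 8 against the controls. The background of all probe sets was 23.3% higher and 10.9% lower for sarcomatoid, 24% and 10.2% for biphasic, and 24.6% and 9.64% for epithelioid tumors. The log2 change of Tuba8 was -7.21, -7.51 and -7.50 in sarcomatoid, biphasic and epithelioid tumors. Tuba4a changed by -3.62, -2.43 and -3.43, Tubb2a by 1.38, 2.09 and 1.50, Tubb5 by 3.08, 2.82 and 2.91, and Tubb6 by 2.69, 2.80 and 2.56 in that order. In the sarcomatoid group the exact two-sided permutation p of Tuba8, Tuba4a, Tubb2a and Tubb5 was 0.0179, the smallest that 5 against 3 arrays allow, and that of Tubb6 was 0.0357.

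Tubb3, Tubg1 and the highest-signal probe set of Tube1 were called in none of these 7 comparisons. The nearest were Tubg1 with MWCNT C, at 0.50 (95% interval 0.04 to 0.95, limma adjusted p = 0.074), and in biphasic tumors, at 0.45 (95% interval 0.03 to 0.87, limma adjusted p = 0.071). Tube1 by 1383568_at reached 0.86 with MWCNT C (limma adjusted p = 0.11) and 0.84 with amosite (limma adjusted p = 0.12). By probe set 1392370_at Tube1 was called in every inducer group and tumor type, from 1.30 with MWCNT D to 1.85 with MWCNT C.

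**Figure D3:**
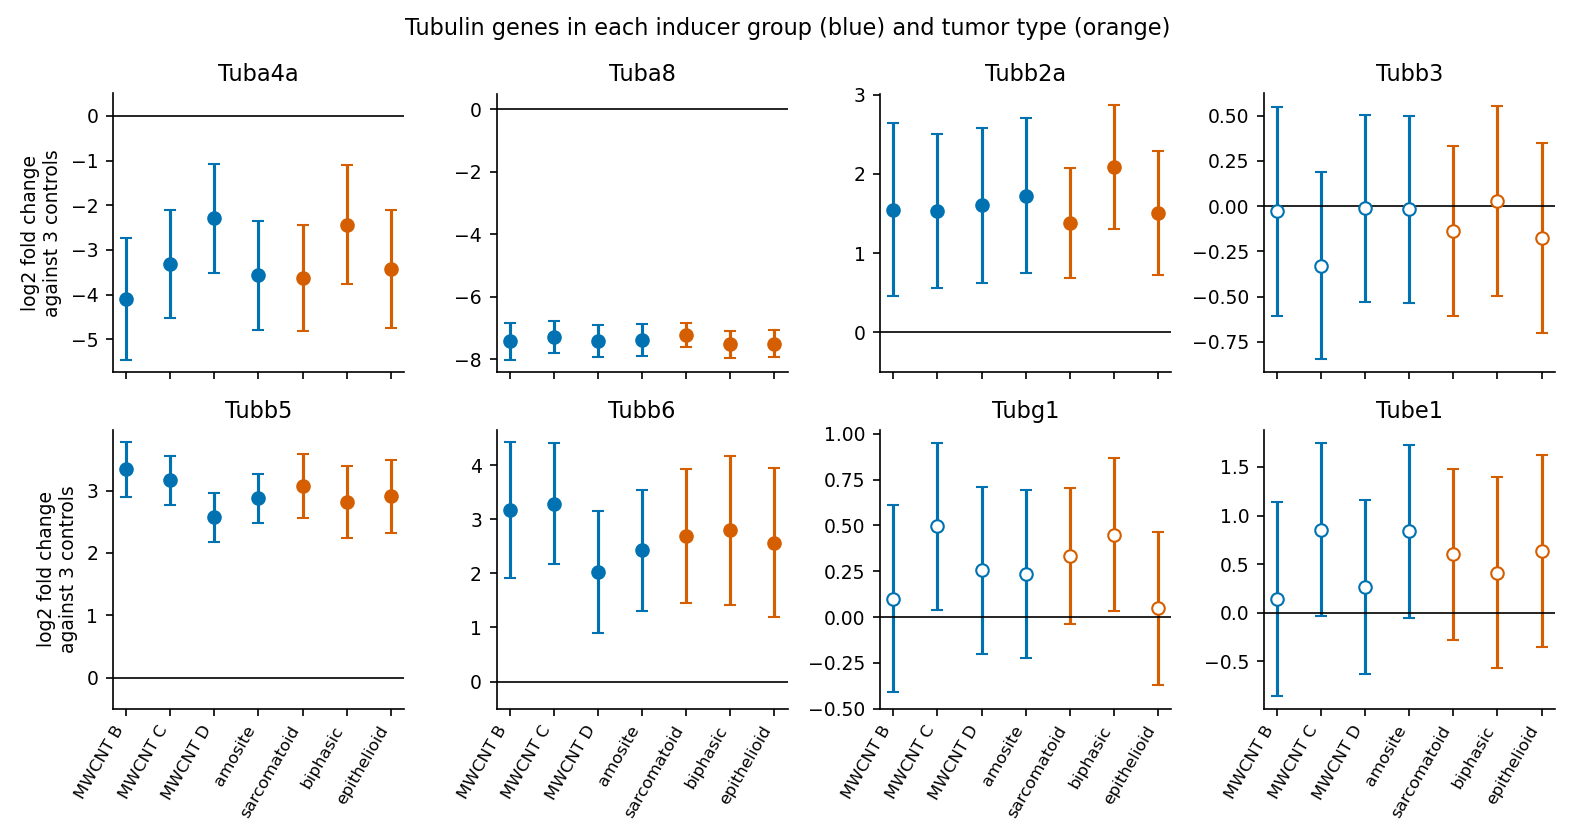
Log2 change of each tubulin gene against the 3 controls (y axis, scale per panel) in the 4 inducer groups (blue) and 3 tumor types (orange), with 95% intervals of limma before adjustment; filled symbols were called. Tuba8 lies between -7.51 and -7.21 in all 7 groups, while Tuba4a runs from -4.10 with MWCNT B to -2.29 with MWCNT D.

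Between tumor types, limma called 0 of the 8 genes in any of 3 comparisons. Sarcomatoid against epithelioid tumors had 0.76% of all probe sets called in either direction, sarcomatoid against biphasic 0.248% and biphasic against epithelioid 0%. At an unadjusted p below 0.05 the counts of members, each by its highest-signal probe set, were 0, 2 and 0. Those 2 were Tuba4a and Tubb2a, both lower in sarcomatoid than in biphasic tumors. The share of all probe sets at this unadjusted threshold was not computed, so that these counts have no background beside them. Tuba4a was read at 7.69, 9.58, 8.48, 10.39 and 8.91 in the sarcomatoid and at 9.89, 11.36 and 9.36 in the biphasic tumors. The ranges overlapped, and the log2 difference was -1.19 (95% interval -2.38 to -0.01, limma adjusted p = 0.53), or -0.61 without MWCNT D replicate 3. Tubb2a was read at 10.99, 11.33, 10.46, 10.84 and 11.94 against 12.01, 11.58 and 11.88. Here only amosite replicate 3 reached into the biphasic range, and the log2 difference was -0.71 (95% interval -1.41 to -0.01, limma adjusted p = 0.52). By its other probe set, 1371618_s_at, Tubb3 was also lower in sarcomatoid than in biphasic tumors, at -3.05 (95% interval -5.55 to -0.54). Its limma p was 0.021 unadjusted and 0.41 adjusted. The ranges overlapped, and the sarcomatoid tumors include MWCNT B replicate 2, which read 0.005 there. In the sarcomatoid against epithelioid comparison the 8 intervals ran from -1.37 to 1.36, and differences within them remain possible.

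Between inducers, limma again called 0 of 8 genes. MWCNT against amosite tumors had 0% of all probe sets called and no member below an unadjusted p of 0.05, with log2 differences from -0.38 for Tube1 (95% interval -1.14 to 0.38) to 0.43 for Tuba4a (95% interval -0.79 to 1.66). MWCNT B and C against MWCNT D had 0.0129% of all probe sets called, and 3 members had an unadjusted p below 0.05, namely Tubb5, Tubb6 and Tuba4a. The 0.0129% is a share of calls and no background for these 3, because the share of all probe sets at the unadjusted threshold was not computed.

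Tubb5 was read at 12.86 and 13.04 with MWCNT B, at 12.59, 13.03 and 12.70 with MWCNT C and at 12.22, 12.03 and 12.28 with MWCNT D. All 5 tumors of MWCNT B and C exceeded all 3 of MWCNT D. The share of all probe sets with these groups apart was not computed, so that this separation has no background beside it, here or for Tubb6. The log2 difference was 0.67 (95% interval 0.32 to 1.01, limma unadjusted p = 0.00114, adjusted p = 0.44), and the exact permutation p was 0.0179, the smallest possible. Probe set 1370290_at gave 0.58 (95% interval 0.22 to 0.94) with the groups also apart.

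Tubb6 was read at 11.66 and 11.82 with MWCNT B, at 11.59, 12.44 and 11.54 with MWCNT C and at 11.24, 9.17 and 11.38 with MWCNT D. The groups were again apart, though 2 of the 3 MWCNT D tumors lay close below the others, and by probe set 1394144_at the groups overlapped (log2 difference 0.37, 95% interval -0.05 to 0.79). The log2 difference was 1.22 (95% interval 0.26 to 2.17, limma adjusted p = 0.51) and 0.50 without MWCNT D replicate 2 (limma adjusted p = 0.83), so that most of this difference came from 1 tumor. Tuba4a was read at 9.39 and 7.69 with MWCNT B, at 9.58, 8.48 and 9.89 with MWCNT C and at 9.27, 10.39 and 11.36 with MWCNT D. These ranges overlapped, and the log2 difference was -1.34 (95% interval -2.44 to -0.23, limma adjusted p = 0.54), or -0.83 without MWCNT D replicate 3.

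**Figure D4:**
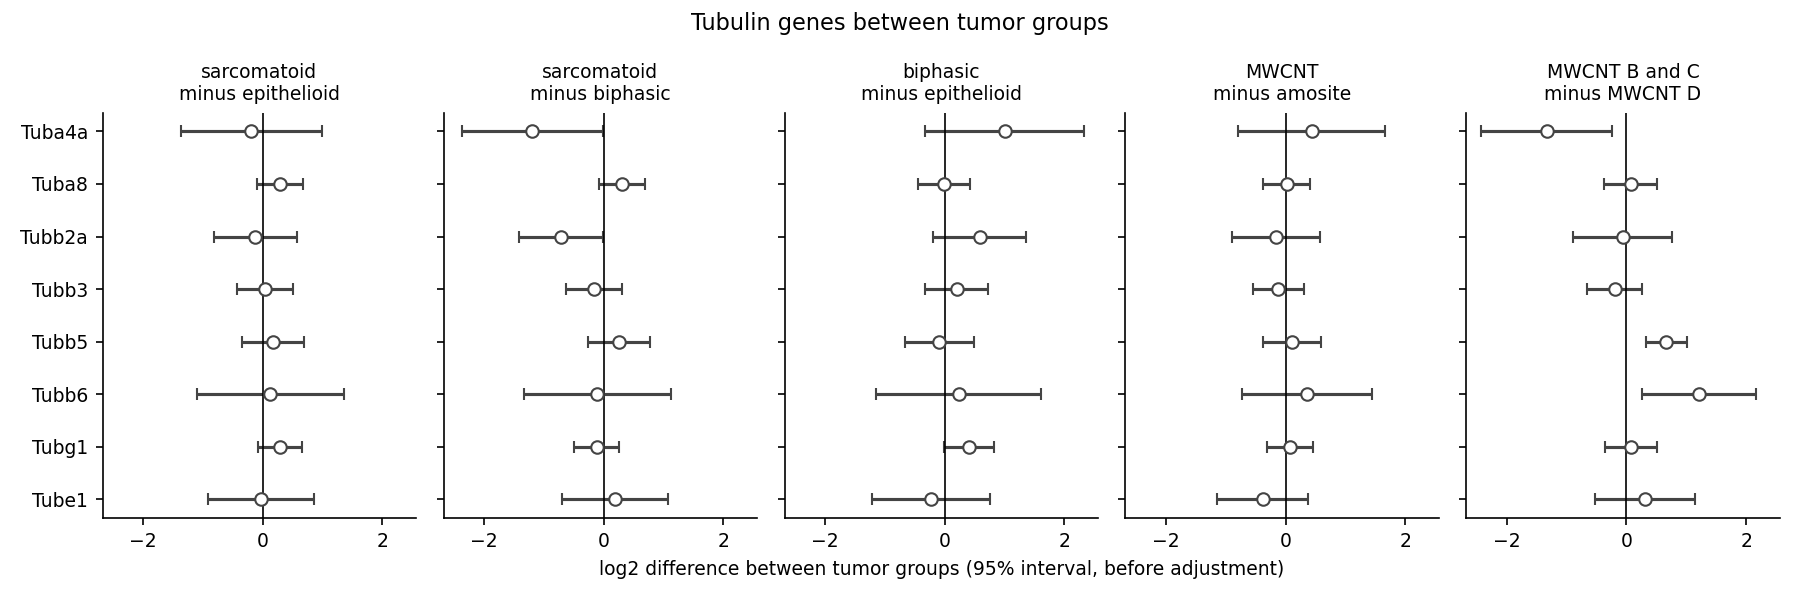
Log2 differences of the 8 tubulin genes between tumor groups (x axis), 1 panel for each of 5 comparisons, with 95% intervals of limma before adjustment. All symbols are open because no gene was called; the intervals of Tubb5 and Tubb6 in the comparison of MWCNT B and C with MWCNT D lie above 0, at 0.32 to 1.01 and 0.26 to 2.17.

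Dividing-cell genes were read beside these differences, because spindle assembly uses tubulin. All 20 genes of the dividing-cell list were called higher in tumors, with a median log2 change of 4.68, including Ttk, a kinase of the spindle checkpoint, at 5.53, Kif20a, a kinesin of cytokinesis, at 5.15, and Mki67, a proliferation marker, at 5.01. The list averaged between 4.74 and 5.03 in controls and between 7.81 and 10.83 in tumors. With MWCNT D it averaged 8.60, 7.81 and 9.68, against 9.36 and 10.02 with MWCNT B and 9.80, 10.83 and 9.62 with MWCNT C. The part of dividing cells in the differences of Tubb5 and Tubb6 was not tested.

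Across the 11 tumors, 8 relations between a tubulin gene and the mean of the dividing-cell list were computed. Tubb5 had Pearson r = 0.82 (permutation p = 0.00099, adjusted p = 0.004) and Spearman rho = 0.74 (permutation p = 0.013, adjusted p = 0.052). Tubb6 had Pearson r = 0.89 (permutation p = 0.00079, adjusted p = 0.004) and Spearman rho = 0.86 (permutation p = 0.0012, adjusted p = 0.01). Without MWCNT D replicate 2 and MWCNT C replicate 2, the tumors farthest from the median of the list, r was 0.66 for Tubb5 (exact permutation p = 0.049) and 0.55 for Tubb6 (exact permutation p = 0.13). Both relations were weaker without those tumors, whose removal also narrows the range of the list. For Tubb6 the permutation test then no longer gave p below 0.05. Without both tumors with pancreatic signal, r of Tubb5 was 0.74 with an adjusted p of 0.07. Tubg1 had r = 0.63 (permutation p = 0.032, adjusted p = 0.087) and Tuba4a r = -0.41 (permutation p = 0.20, adjusted p = 0.40). The other 4 genes had r between -0.15 and 0.27. The points share array and scaling, and 11 tumors of mixed inducer and type do not form 1 group.

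**Figure D5:**
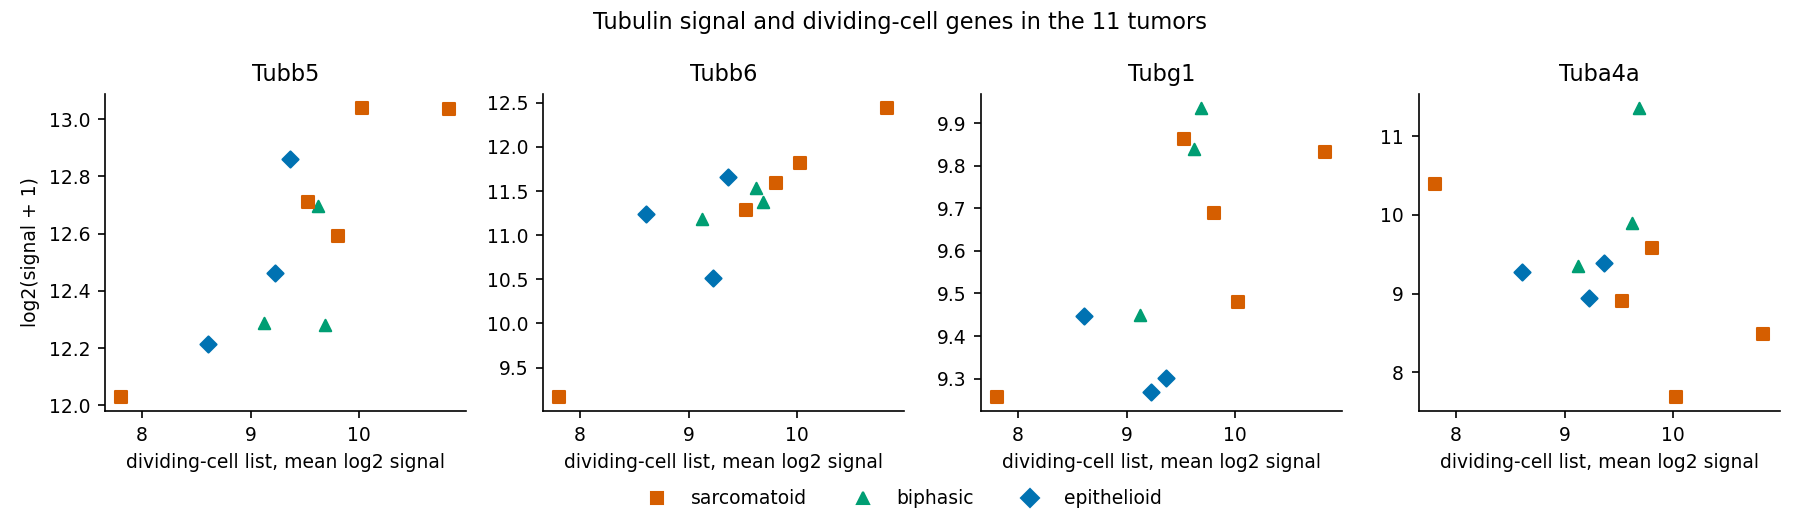
Signal of Tubb5, Tubb6, Tubg1 and Tuba4a (y axis, log2(signal + 1)) against the mean log2 signal of the dividing-cell list (x axis) in the 11 tumors, with tumor type by symbol. Tubb5 and Tubb6 are higher where the list is higher (Pearson r = 0.82 and 0.89), and the lowest and highest list means, 7.81 and 10.83, are those of MWCNT D replicate 2 and MWCNT C replicate 2.

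Among 7597 genes with sufficient signal in the tumors, the genes most like each of the 4 most variable tubulins were taken by Pearson r over the 11 tumors, as a description. For Tuba4a (SD 0.97) they were Sbno1, Ppp1r13b and Midn, with r from 0.91 to 0.92. For Tubb6 (SD 0.84) they were Kif13a, a kinesin, Atl3, a shaper of the endoplasmic reticulum, and Cdc20, the mitotic activator of the anaphase-promoting complex, with r of 0.97 each. For Tube1 (SD 0.60) they were Lsm3, Exosc8 and Srsf7, all of RNA processing, with r from 0.89 to 0.90. For Tubb2a (SD 0.55) they were Rnase4, Klc4, a kinesin light chain, and Lum, the matrix proteoglycan lumican, with r from 0.90 to 0.91. Cdc20 is also in the dividing-cell list. No tumor was left out of these r values. Tube1 read far higher in MWCNT C replicate 2 and amosite replicate 1 than in the other tumors, and Tubb6 far lower in MWCNT D replicate 2. The part of such single tumors in the r values was not tested.

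The other genes of the microtubule system were read from lists between tumors and controls. Of 10 further tubulins 4 were measured, and 1 was called higher (25%, against 24.5% of all probe sets) and 0 lower. The median log2 change of the 4 was 0.20 beside 0.34 over all probe sets. The gene called was Tubb2b, at a log2 change of 2.21 (limma adjusted p = 0.008). Tubb1, Tubb4a and Tubb4b were not called, at 0.08, -0.70 and 0.31. Of 20 measured genes for folding tubulin, which comprise the CCT chaperonin, prefoldin and the tubulin cofactors, 1 was called higher (5%, against 24.5% of all probe sets), Tbce at 1.10. The list's median log2 change was 0.50 beside 0.34 over all probe sets.

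Of 17 measured genes of the gamma-tubulin complex and of nucleation, 7 were called higher (41.2%, against 24.5% of all probe sets) and 2 lower (11.8%, against 10.4%). The largest rises were those of Haus4 at 2.81, Haus6 at 2.44 and Haus8 at 2.43, subunits of the augmin complex that branches spindle microtubules. The 2 lower genes, named after their values were seen, were the centrosome scaffolds Pcnt at -1.76 and Akap9 at -1.12. The list's median log2 change was 0.96 beside 0.34 over all probe sets.

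Of 13 measured genes of centriole duplication, 8 were called higher and 0 lower (5 were not called), or 61.5% higher against 24.5% of all probe sets, with a median log2 change of 1.43. They included Plk4, the kinase that starts duplication, at 4.59, Cenpj at 1.43 and Ccp110, a cap of the centriole end, at 1.19. Tedc1 and Tedc2, whose products act with epsilon- and delta-tubulin, were among the 8 at 2.31 and 1.84 and are named after their values were seen. Of 17 measured tubulin-modifying enzymes, 4 were called higher (23.5%, against 24.5% of all probe sets) and 1 lower (5.88%, against 10.4%), which is near or below the background. The one called lower was Agtpbp1, a deglutamylase, at -3.09, and Tpgs2, of the polyglutamylase complex, rose by 1.42. The other 3, named after their values were seen, were Hdac6, a tubulin deacetylase, at 2.48, Ttll1, a glutamylase, at 1.26, and Matcap1, a detyrosinase, at 2.67.

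Of 31 measured microtubule-associated genes, 7 were called higher (22.6%, against 24.5% of all probe sets) and 5 lower (16.1%, against 10.4%), with a median log2 change of 0.41 beside 0.34 over all probe sets. Kif2c, a kinesin that depolymerizes microtubule ends, rose by 4.80 and Stmn1, the tubulin-sequestering stathmin, by 2.94. Mapt, which encodes tau, fell by 3.25 on the log2 scale. Limma called 0 genes of these 6 microtubule lists in the 5 comparisons between tumor groups.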

How the data were processed

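RNA of 11 tumors and 3 control tissues was hybridized to 1 Affymetrix rat genome array each. The intensity values were deposited by the authors after PLIER normalization in the Transcriptome Analysis Console, as linear signals without detection calls, and the array number limits the precision. Removal of 57 control probe sets from 31099 left 31042, and log2(signal + 1) was used. Symbols came from the array annotation, checked by gene ID against RefSeq (GRCr8): 20826 probe sets had 1 symbol (20758 found in RefSeq), 436 several and 9780 none. For 13 comparisons, limma 3.58.1 (R 4.3.3) fitted linear models to all probe sets, with Benjamini-Hochberg adjustment over them. Inducers, tumor types, MWCNT against amosite, and MWCNT B and C against MWCNT D had a fit each with the controls included. Calls needed a fold change above 2 with adjusted p below 0.05. Permutation tests were two-sided, exact over arrays, or with 100000 resamples for correlations over the tumors. Start-site regions were read from a RefSeq table, and figures were drawn with matplotlib 3.10.9 in Python 3.11.15.

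The text names every tubulin with a probe set of its own, up to 3 called genes of each list with the largest change and a mean log2 signal of at least 8 in the higher group, and the 3 genes most like each of the 4 most variable tubulins. Pcnt, Akap9, Tedc1, Tedc2, Hdac6, Ttll1, Matcap1, Snap25, Syt1, Tubb1, Tubb4a and Tubb4b lie outside this rule and were chosen after their values were seen. Members and lists were chosen with earlier results of these data known. Further lists held mesothelial, macrophage, pancreatic acinar and ciliated cell genes. In tumors 8 of 11 measured mesothelial genes (72.7%) and 15 of 16 macrophage genes (93.8%) were called higher. For pancreatic acinar genes it was 1 of 11 (9.09%) and for ciliated cell genes 1 of 5 (20%). The shares over all probe sets were 24.5% higher and 10.4% lower, and each of these lists had 0 lower. The procedure was tested on simulated data. Alternatives were quantile normalization, centring on array medians, a pseudocount of 32, a floor at log2 5, testing only probe sets with a mean log2 signal of at least 6, no moderation, trend and robust moderation, a fit of the compared groups alone, a replicate block, tumor type or inducer as a covariate, each array left out, the probe set with the largest change and, added after seeing the data, both tumors with pancreatic signal left out.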

Additional observations from a re-analysis of the deposited data

Results flagged for a closer look

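Of 42 pairs of a tubulin probe set and a group of at least 4 arrays, 6 held an array set far apart from the others by its gap relative to the range of the group. For a single pair chance gives about 1 in 20. The pairs are not independent, because the groups overlap and several probe sets read the same gene, so that the 6 of 42 cannot be set against that rate. All 6 lay among the 8 MWCNT tumors. MWCNT B replicate 2 read 0.005 for Tubb3 by 1371618_s_at, the lowest of the group. MWCNT D replicate 2 was lowest for Tubb6 by 1376100_at, at 9.17, and for the probe set shared by Tuba1b, Tuba1c and Tuba1a, at 13.07. MWCNT C replicate 2 was highest for all 3 probe sets of Tube1, at 9.10 by 1383568_at, 8.21 by 1392370_at and 7.84 by 1381855_at. MWCNT D replicate 2 also had the lowest dividing-cell list mean of the tumors, 7.81, and a pancreatic acinar list mean of 13.93, and MWCNT C replicate 2 had the highest dividing-cell mean, 10.83. The part of these in the readings was not tested.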

How the results depend on the processing

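Under the alternatives run, 389 counts of called tubulin genes kept within 1.5 times their main value. Of 1992 values of single genes, 1973 kept their call or lack of a call, 8 were newly called, 11 lost their call and 0 turned direction while called. Direction was not compared for values without a call, and Tubg1 and Tubb3 took both signs. The 8 were Tube1 against controls when the probe set with the largest change was used (1.53 in all tumors), which makes 4 tubulins higher. Of the 11, 10 were Tubb2a: beside the arrays left out that were named with its values, centring on array medians gave 1.09 with MWCNT B (adjusted p = 0.11), 1.14 with MWCNT C (0.062), 1.15 with MWCNT D (0.059) and 0.95 in epithelioid tumors (0.05), and 1 was the correlation of Tubb5. Over the 24 alternatives of tumors against controls, the log2 difference ran from -7.82 to -6.92 for Tuba8, -3.69 to -3.08 for Tuba4a, 1.16 to 1.75 for Tubb2a, 2.51 to 3.34 for Tubb5, 2.24 to 3.00 for Tubb6, 0.11 to 1.53 for Tube1, -0.16 to 0.36 for Tubg1 and -0.55 to 0.00 for Tubb3. The share of called probe sets that were higher was 70.2%, and 52.4% after quantile normalization and 46.6% after centring. Replicate numbers gave no sign of pairing. Deviations of 26 same-number pairs correlated from -0.29 to 0.39 (median 0.015), and those of 52 different-number pairs from -0.448 to 0.448 (median -0.004). With the replicate block 3 tubulins were higher and 2 lower, and 10868 probe sets were called against 10846. Array number and the absence of detection calls limit low readings such as those of Tubb3.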
